A study of Mus musculus with 36 samples.

Results

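The genes of 8 surface proteins by which stem and progenitor cells of mouse bone marrow are told apart and sorted, Kit, Flt3, Slamf1, Cd48, Ly6a, Cd34, Procr and Fcgr3, were followed through an atlas of chromatin accessibility. Overlapping peaks of the 36 libraries (1 bp sufficed) were joined into regions, and a region was given to the protein-coding gene whose transcription start site (GENCODE, mm10) lay nearest to its centre. Of 105005 regions, 86 belonged to these genes: 29 to Kit, 9 to Flt3, 4 to Slamf1, 6 to Cd48, 3 to Ly6a, 14 to Cd34, 3 to Procr and 18 to Fcgr3. Regions are named here by gene and by the distance in bp of their centre from that start site, so that Slamf1 +6284 lies 6284 bp downstream and Cd34 -10687 lies upstream. The question was whether a region of a gene was called as accessible in the fractions that were sorted as positive for its protein and not in those sorted as negative.

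Bulk ATAC-seq, in which a transposase cuts open chromatin, was performed on 8 fractions of C57BL/6 female marrow at 10 weeks (young) and 20 months (aged), with no transgene and no treatment. Hematopoietic stem cells (HSCs) had 4 libraries per age. Each of the other fractions had 2: the multipotent progenitors MPP1 to MPP4, the progenitors of granulocytes and macrophages (GMPs), those of megakaryocytes and erythrocytes (MEPs), and the common progenitors of lymphocytes (CLPs). Marrow of each age was pooled before sorting in duplicate, so that libraries of a group may share animals and the p-values below measure the spread between libraries, which may be technical. The tests of an antigen counted each library as a unit, although the antigen was set by fraction. Their p-values thus do not measure the spread between fractions sorted alike for that antigen. All fractions were depleted of lineage-positive cells. HSCs were c-Kit+ Sca-1+ CD34- CD150+ CD48- Flt3-, and MPP1s differed from them in the labels by CD34 alone. MPP2s were CD34+ CD150+ CD48+ Flt3-, MPP3s CD34+ CD150- CD48+ Flt3- and MPP4s CD34+ CD150- CD48+ Flt3+, all c-Kit+ Sca-1+. GMPs were c-Kit+ Sca-1- CD34+ FcγR+, MEPs c-Kit+ Sca-1- CD34- FcγR-, and CLPs c-Kit low, Sca-1 low and positive for IL-7, as the labels write it. EPCR, the product of Procr, was not part of any gate.

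c-Kit and Flt3 are receptor tyrosine kinases for stem cell factor and Flt3 ligand, and both carry survival and growth signals in early blood cells. CD150 (Slamf1) and CD48 are members of the SLAM family of immune cell receptors, whose genes lie next to one another in the genome, and their opposite display marks HSCs in the mouse. Sca-1 (Ly6a) is a small protein held at the membrane by a lipid anchor, CD34 is a sialomucin that long-term HSCs of adult mice lack, EPCR (Procr) binds protein C and is abundant on HSCs, and FcγRIII (Fcgr3) binds immunoglobulin G on myeloid cells. A surface antigen reports protein at the membrane, whereas ATAC-seq reports whether DNA near a gene is open, and a gene can be open in cells that do not display its product.

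The libraries held between 9581 and 63288 peaks. MEPs had the fewest, with 9581 to 11041, GMPs the most, with 52576 to 63288, and the other fractions between 27087 and 40157. The value of a region in a library is the highest fold enrichment that the peak caller gave there, the ratio of reads to the local background, as deposited. At the regions shared by all 36 libraries, the median per library on the log2 scale was 4.21 to 4.34 in GMPs, 2.91 to 2.96 in MEPs and 3.54 to 3.96 in the other fractions, so that raw levels of GMPs and MEPs carry this shift. Where levels are compared below as centred, this median was subtracted. A region with no value was not called, which places it below the caller's limit (q = 0.001) and does not mean closed chromatin. In such bulk samples, fewer cells with an open region and less opening per cell cannot be told apart. Genes that define the fractions were examined at their promoters or nearest regions. The neutrophil granule genes Mpo and Elane were called in 4 of 4 GMP libraries and, outside GMPs, only Mpo in 1 MPP3 library, and Cebpe, a granulocyte regulator, was called in 3 of 4 GMP libraries alone. Of the lymphoid genes, Il7r was called in 4 of 4 MPP4, GMP and CLP libraries and in no other, whereas Dntt and Ebf1 were called in 3 of 4 CLP libraries and in all 8 HSC libraries. Of the stem cell genes, every HSC library had a call at Hlf and Meis1, as had nearly all libraries outside MEPs, and Mecom was called in 0 of 8 HSC libraries and in 3 of 4 each of MPP4 and GMP libraries. These calls thus set GMPs apart but not HSCs or CLPs. Gata1 and Klf1, regulators of the erythroid lineage, were each called in 1 of 4 MEP libraries, and Epor, the erythropoietin receptor, in 4 of 4 but also in nearly every library of the other fractions, so that calls at these genes did not set the MEPs apart.

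Among the 86 regions, 6 lay in a promoter (1000 bp before to 100 bp after the start site), 3 in an untranslated region of an exon, 27 in introns and 50 between genes. Of the 86, 3 were called in all 36 libraries (3.49%, against 5.08% of all regions), 21 in at least 18 (24.4% against 26.2%) and 11 in 1 library (12.8% against 18.4%). At least 1 GMP library held 63 of them (73.3% against 69.8%), at least 1 HSC library 41 (47.7% against 49.2%) and at least 1 MEP library 14 (16.3% against 13.3%). GMPs alone held 20 (23.3% against 24.1%), of which Kit contributed 9, Flt3 4, Fcgr3 4, and Slamf1, Ly6a and Procr 1 each. The shares of the members lay near those of all regions, and the number of peaks per library, highest in GMPs and lowest in MEPs, moved with them.

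**Figure D1:**
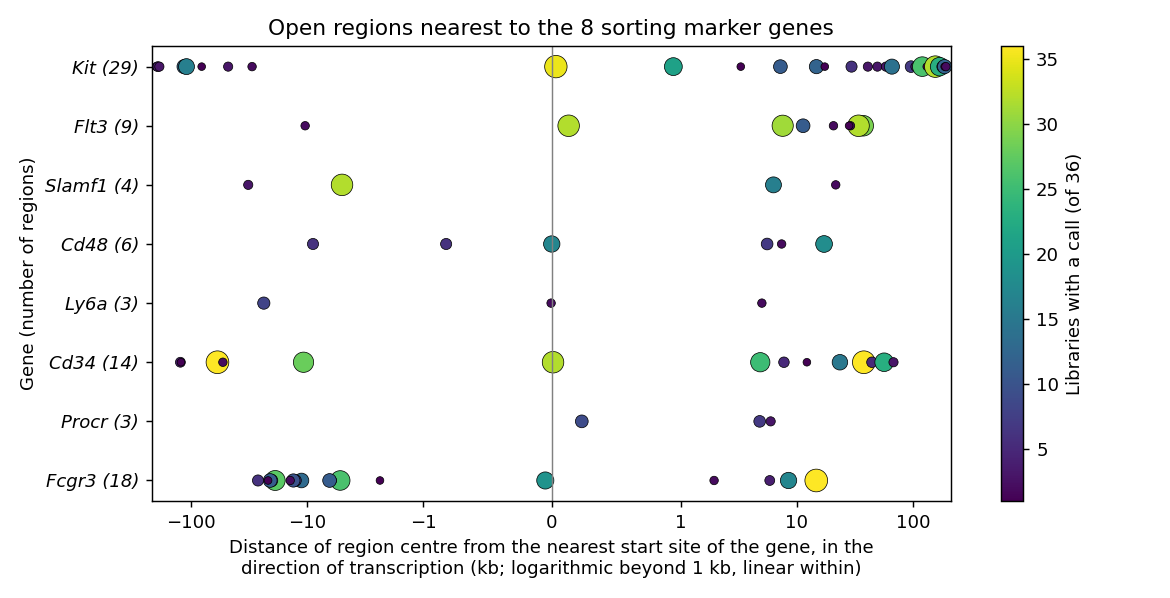
Regions of the 8 genes by their distance from the nearest protein-coding start site in kb (horizontal, 1 line per gene), on a scale that is logarithmic beyond 1 kb, with the number of libraries of 36 with a call as colour and size. Slamf1, Ly6a and Procr had 3 or 4 regions each, whereas the 29 regions of Kit were spread over both sides of the gene.

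The sequences are shown of the regions that passed the test for their gene's own antigen, or that were called in all libraries of one MPP fraction and none of its neighbour. They are the 200 bp around the summit of the region, or the part of those bp outside untranslated sequence, read on the forward strand from the RefSeq copy of the mm10 genome (GRCm38). Capitals mark motif matches on either strand. GATA factors were searched as AGATAA. RUNX factors were searched as TGTGGT. ETS factors were searched as CCGGAA. C/EBP factors were searched as TTGCNNAA. PU.1 was searched as GAGGAAGT and AP-1 as TGANTCA, and neither occurs in the stretches printed, where no 2 matches overlap. Slamf1 +6284 (chr1:171773283-171773482) and Cd34 +4838 (chr1:194943562-194943761), both in introns, each held 1 GATA match. Cd48 -1 (chr1:171681899-171682008), which ends at the base before the start site, held a RUNX and an ETS match. Cd34 -10687 (chr1:194928033-194928232) held 1 ETS match, and the promoter region Fcgr3 -51 (chr1:171059404-171059529) held 1 C/EBP match. Kit -114263 (chr5:75460554-75460753) held 2 GATA matches, and Kit +169841 (chr5:75744676-75744875), which was called in early fractions, held 1 RUNX match.
Slamf1 +6284: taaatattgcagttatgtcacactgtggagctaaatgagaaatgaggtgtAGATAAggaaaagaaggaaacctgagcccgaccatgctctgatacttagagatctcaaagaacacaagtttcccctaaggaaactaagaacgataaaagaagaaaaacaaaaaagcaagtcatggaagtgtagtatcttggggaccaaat
Cd48 -1: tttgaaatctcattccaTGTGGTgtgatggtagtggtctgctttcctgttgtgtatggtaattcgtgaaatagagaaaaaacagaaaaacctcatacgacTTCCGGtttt
Cd34 +4838: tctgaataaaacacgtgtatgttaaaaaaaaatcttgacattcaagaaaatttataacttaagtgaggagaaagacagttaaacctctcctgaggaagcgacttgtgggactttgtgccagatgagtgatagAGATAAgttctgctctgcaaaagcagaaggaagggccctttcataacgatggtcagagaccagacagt
Cd34 -10687: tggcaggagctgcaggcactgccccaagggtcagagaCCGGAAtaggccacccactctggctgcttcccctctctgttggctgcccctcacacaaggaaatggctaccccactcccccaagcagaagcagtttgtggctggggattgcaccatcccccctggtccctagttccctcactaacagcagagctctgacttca
Fcgr3 -51: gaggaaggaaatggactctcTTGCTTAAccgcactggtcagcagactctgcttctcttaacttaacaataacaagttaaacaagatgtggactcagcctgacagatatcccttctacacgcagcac
Kit -114263: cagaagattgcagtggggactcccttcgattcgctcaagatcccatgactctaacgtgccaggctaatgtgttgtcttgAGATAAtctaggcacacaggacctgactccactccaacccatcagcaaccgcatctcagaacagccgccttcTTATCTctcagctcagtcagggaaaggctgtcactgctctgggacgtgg
Kit +169841: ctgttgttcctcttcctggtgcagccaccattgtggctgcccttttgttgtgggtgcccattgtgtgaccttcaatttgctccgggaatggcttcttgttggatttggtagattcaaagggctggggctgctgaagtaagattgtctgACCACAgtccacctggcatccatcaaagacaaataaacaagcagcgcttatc

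A match is a description of the letters and not a bound site. Over 104815 windows of 200 bp, the share of all regions with at least 1 match was 10.2% for GATA, 25.6% for RUNX, 6.83% for ETS, 13.2% for C/EBP, 8.41% for PU.1 and 11.3% for AP-1. Of the 86 regions here, 12 held a GATA match, 15 a RUNX match, 5 an ETS match, 10 a C/EBP match, 6 a PU.1 match and 12 an AP-1 match. Promoter regions in general held ETS matches more often (19%) and GATA matches less often (3.75%).

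**Figure D2:**
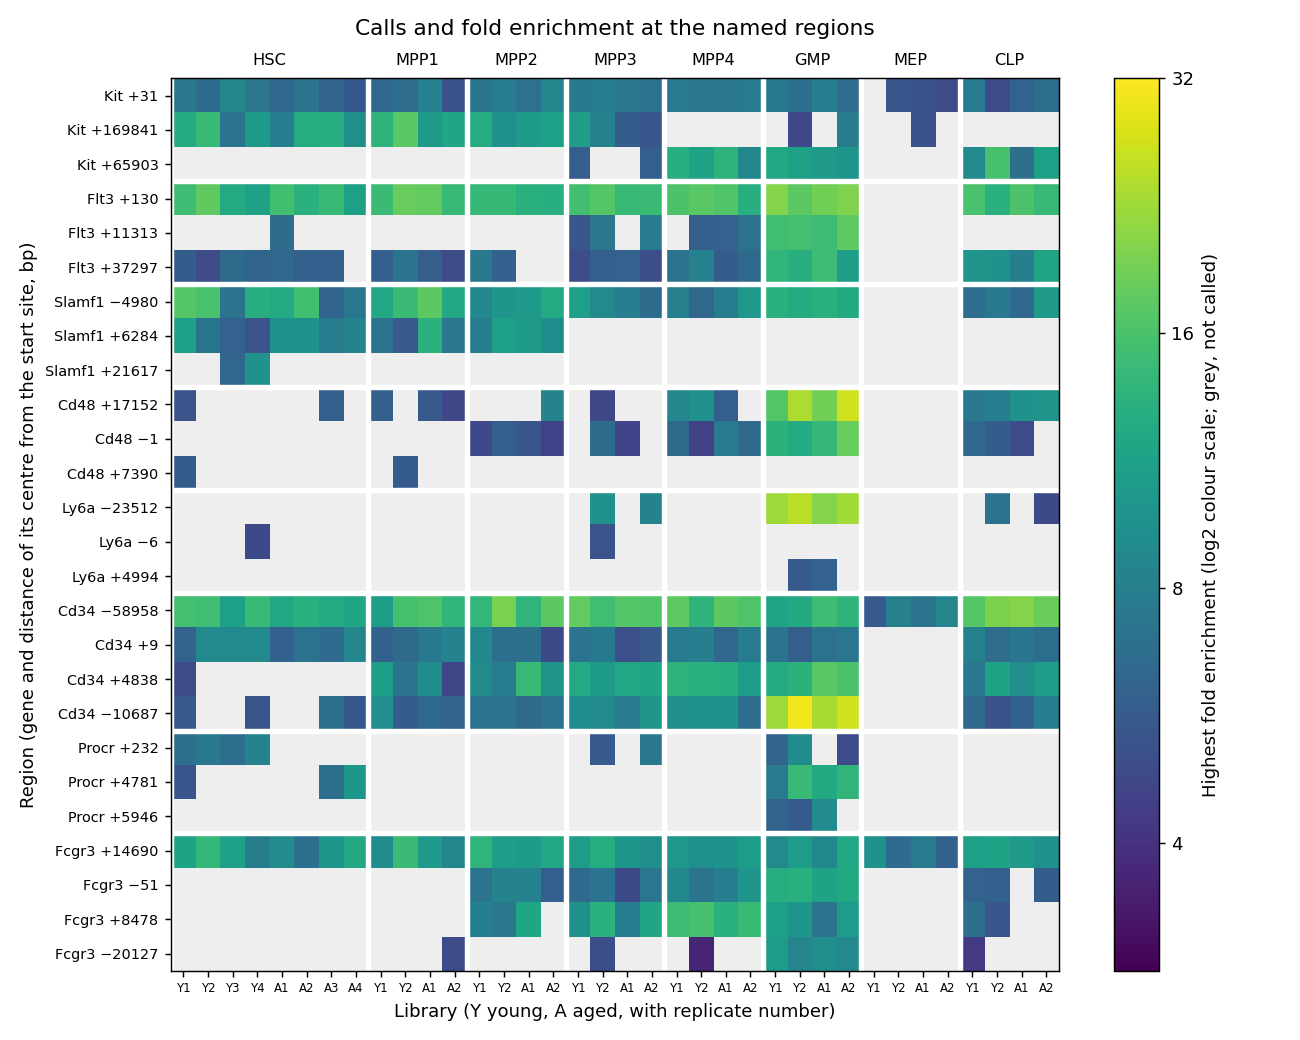
Highest fold enrichment (colour, log2 scale) of 3 or 4 regions of each gene (vertical) in each of the 36 libraries (horizontal, by fraction, young Y and aged A), with grey where a region was not called. MEPs carry the fewest coloured cells, and Slamf1 +6284 is coloured in HSCs, MPP1s and MPP2s alone.

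Slamf1 had 1 region of 3 tested whose calls followed its antigen in every library. Slamf1 +6284, at chr1:171773124-171773697 in an intron, was called in all 16 libraries of the CD150+ fractions (HSC, MPP1 and MPP2) and in 0 of 8 of the CD150- fractions (MPP3 and MPP4). Fold enrichment was 11.32, 7.27, 6.06 and 5.27 in the 4 young HSC libraries and 9.52, 9.70, 7.94 and 8.37 in the aged. It was 7.0 and 5.66 in young MPP1s, 13.31 and 7.45 in aged MPP1s, 7.86 and 11.08 in young MPP2s and 10.65 and 9.24 in aged MPP2s. The levels of the 3 positive fractions overlapped, and the difference lay in the presence of a call. It was also uncalled in all 4 libraries each of GMPs, MEPs and CLPs, for which the labels give no CD150 gate. By Fisher's exact test on libraries, 2-sided and adjusted by the method of Benjamini and Hochberg over the 71377 regions of this comparison, the adjusted p was 0.0018. That test counted the libraries of a fraction as separate units. The call was lost under a stricter overlap, 50% of the region (adjusted p = 0.442), and with the same number of peaks in every library Slamf1 +6284 was called in none.

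No Slamf1 region was called more often in the CD150- fractions. Over all regions, 1.34% were called more often in the CD150+ fractions and 1.65% more often in the CD150- fractions, and 0.0518% were called in every positive and no negative library. MPP2s and MPP3s differ in the labels by CD150 alone, and Slamf1 +6284 was called in all 4 of the former and none of the latter, as were 0.594% of regions and 1 of 43 members. With 2 libraries per age, no comparison of these fractions within an age could pass, since the smallest exact p of 2 against 2 is 0.333.

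The other Slamf1 regions did not follow the antigen. Slamf1 -4980, at chr1:171761747-171762546, was called in all libraries except the 4 MEP libraries. Its fold enrichment ran from 6.18 to 16.94 in HSCs and from 12.13 to 17.42 in MPP1s, and it stood at 6.65 to 11.14 in MPP3s, 6.42 to 10.29 in MPP4s, and 12.36 to 13.35 in GMPs. Among MPP2s it was 8.80, 10.14, 10.50 and 12.47, and the difference from MPP3s was 0.39 on the log2 scale (SE 0.19, adjusted p = 0.371, limma). The centred values of GMPs at Slamf1 -4980 (-0.62 to -0.47, log2) lay within those of MPP3s (-1.09 to -0.26) and MPP4s (-1.25 to -0.34). Slamf1 +21617 was called in 2 young HSC libraries alone, at 6.32 and 9.62. All 4 GMP libraries thus had a call at Slamf1 -4980 and none at Slamf1 +6284.

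Cd48 had 1 region of 3 tested whose calls followed its antigen, and it was 1 of 2 promoter regions of the gene. Cd48 -1, at chr1:171681744-171682272, was called in 10 of 12 libraries of the CD48+ fractions (MPP2, MPP3 and MPP4) and in 0 of 12 of the CD48- fractions (HSC and MPP1), with an adjusted p of 0.00802 by Fisher's exact test. In MPP2s it stood at 4.84 and 5.87 in young and 5.41 and 4.62 in aged libraries, and in MPP4s at 6.54 and 4.51 in young and 7.59 and 6.56 in aged. In MPP3s it was called in 1 library per age, at 6.67 and 4.62. GMPs had the highest values, 13.42, 12.63, 14.27 and 18.17, all above every MPP library as deposited and after centring (-0.59 to -0.07 in GMPs and at most -0.74 in MPPs, log2), and CLPs had 6.47, 5.78 and 4.97 in 3 libraries, while MEPs had none. The call at Cd48 -1 was lost under 3 other ways of calling peaks, given in the closing section.

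Over all regions, 1.41% were called more often in the CD48+ and 1.44% more often in the CD48- fractions, and no Cd48 region was in the latter group. The step from MPP1s to MPP2s, which changes CD48 in the labels, switched Cd48 -1 from 0 of 4 to 4 of 4 libraries. It did the same for Fcgr3 -51 and Kit -114263, that is 3 of 41 members, against 0.349% of all regions.

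The intronic region Cd48 +17152, at chr1:171698971-171699353, was called in 18 libraries with no relation to the gate. It was called in all 4 GMP libraries at 16.74, 23.73, 19.11 and 26.79 and in all 4 CLP libraries at 7.45, 8.08, 9.72 and 9.90. It was also called in 3 of 4 MPP1 libraries (4.75 to 5.96) and 3 of 4 MPP4 libraries (5.82 to 9.65), and in single libraries of young HSCs (5.24), aged HSCs (5.88), MPP2s (8.36) and MPP3s (4.75). Cd48 -8857, -820 and +5541 were called in all 4 GMP libraries and in 2 or 3 CLP libraries, and nowhere else. Cd48 +7390 was called at 5.76 in 1 young HSC and at 5.75 in 1 young MPP1 library.

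Cd34 had 14 regions, and 2 of the 13 tested passed the threshold, both more often in the CD34+ fractions (MPP1 to MPP4 and GMP) than in the CD34- fractions (HSC and MEP). Cd34 +4838, at chr1:194943476-194943950 in an intron, was called in 20 of 20 positive and 1 of 12 negative libraries (adjusted p = 7.95e-05, Fisher's exact test). The 1 negative library was of young HSCs, at 4.99, while the other 7 HSC libraries had no call. MPP1s, which the labels part from HSCs by CD34 alone, had 10.97 and 7.18 in young and 9.20 and 4.75 in aged libraries. MPP2s ran from 7.88 to 14.52, MPP3s from 10.64 to 12.48, MPP4s from 10.93 to 13.52 and GMPs from 12.63 to 17.22. GMPs after centring (-0.55 to -0.23, log2) overlapped MPP3s (-0.55 to -0.02) and MPP4s (-0.26 to 0.04). CLPs, for which CD34 is not given, had 7.39, 11.49, 9.27 and 11.01.

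The lowest positive value at Cd34 +4838, in 1 aged MPP1 library, lay below the single HSC value as deposited and just above it after centring (-1.38 against -1.40, log2), and all the others lay above it. In the step from HSCs to MPP1s the region was called in 4 of 4 against 1 of 8 libraries (p = 0.0101, adjusted p = 1, Fisher's exact test), and it was the only 1 of 44 members with an unadjusted p below the threshold in that direction, against 1.19% of all regions. The negative group held the 4 MEP libraries with their few peaks. In an alternative chosen after seeing the data, without GMPs and MEPs, Cd34 +4838 was called in 16 of 16 against 1 of 8 libraries with an adjusted p of 0.00864, and its adjusted p lay between 4.12e-05 and 0.00864 over all alternatives. Over all regions, 4.51% were called more often in the CD34+ fractions and 0.132% more often in the CD34- fractions.

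Cd34 -10687, at chr1:194927854-194928409 between genes, was called in 20 of 20 against 4 of 12 libraries (adjusted p = 0.00372, Fisher's exact test). GMPs had 22.52, 30.28, 23.35 and 26.79, MPP1s to MPP4s had 5.72 to 10.06, and 4 of 8 HSC libraries had 5.32 to 6.95. Without GMPs and MEPs it was called in 16 of 16 against 4 of 8 libraries and did not pass (adjusted p = 0.152), nor did it with the same number of peaks in every library (adjusted p = 0.655). The promoter region of Cd34 was called in 20 of 20 CD34+ and 8 of 12 CD34- libraries (adjusted p = 0.0995, Fisher's exact test). With peaks of a −log10 q of at least 10 alone, it was called in 20 of 20 against 6 of 12 and passed (adjusted p = 0.029). Cd34 +9, at chr1:194938587-194939181, was called in all libraries but those of MEPs, at 6.10, 8.99, 9.0 and 8.94 in young HSCs, 6.01 and 6.54 in young MPP1s and 7.51 and 8.33 in aged MPP1s. MPP1s differed from HSCs there by -0.12 on the log2 scale (SE 0.17, adjusted p = 0.845, limma).

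Cd34 -58958, at chr1:194879485-194880236, was called in all 36 libraries, with 11.12 to 15.57 in HSCs, 10.88 to 16.47 in MPP1s, 16.95 to 20.48 in CLPs and 5.64 to 8.65 in MEPs. MEPs after centring (-0.43 to 0.16, log2) overlapped HSCs (-0.16 to 0.32). MPP1s and HSCs differed by 0.08 (SE 0.13, adjusted p = 0.861, limma). No Cd34 region that was called in CD34- fractions alone passed the test. Cd34 +44349 was called in 5 of 8 HSC libraries (5.54 to 7.24) and in no other fraction (adjusted p = 0.068, Fisher's exact test), and Cd34 -123041 in the 4 MEP libraries (6.94, 8.49, 7.66 and 8.71) and in no other (adjusted p = 0.0995), the fraction with the fewest peaks. Cd34 -52949 was called in 2 MEP libraries (4.72 and 4.37) and Cd34 +12199 in 1 young HSC library (6.29).

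**Figure D3:**
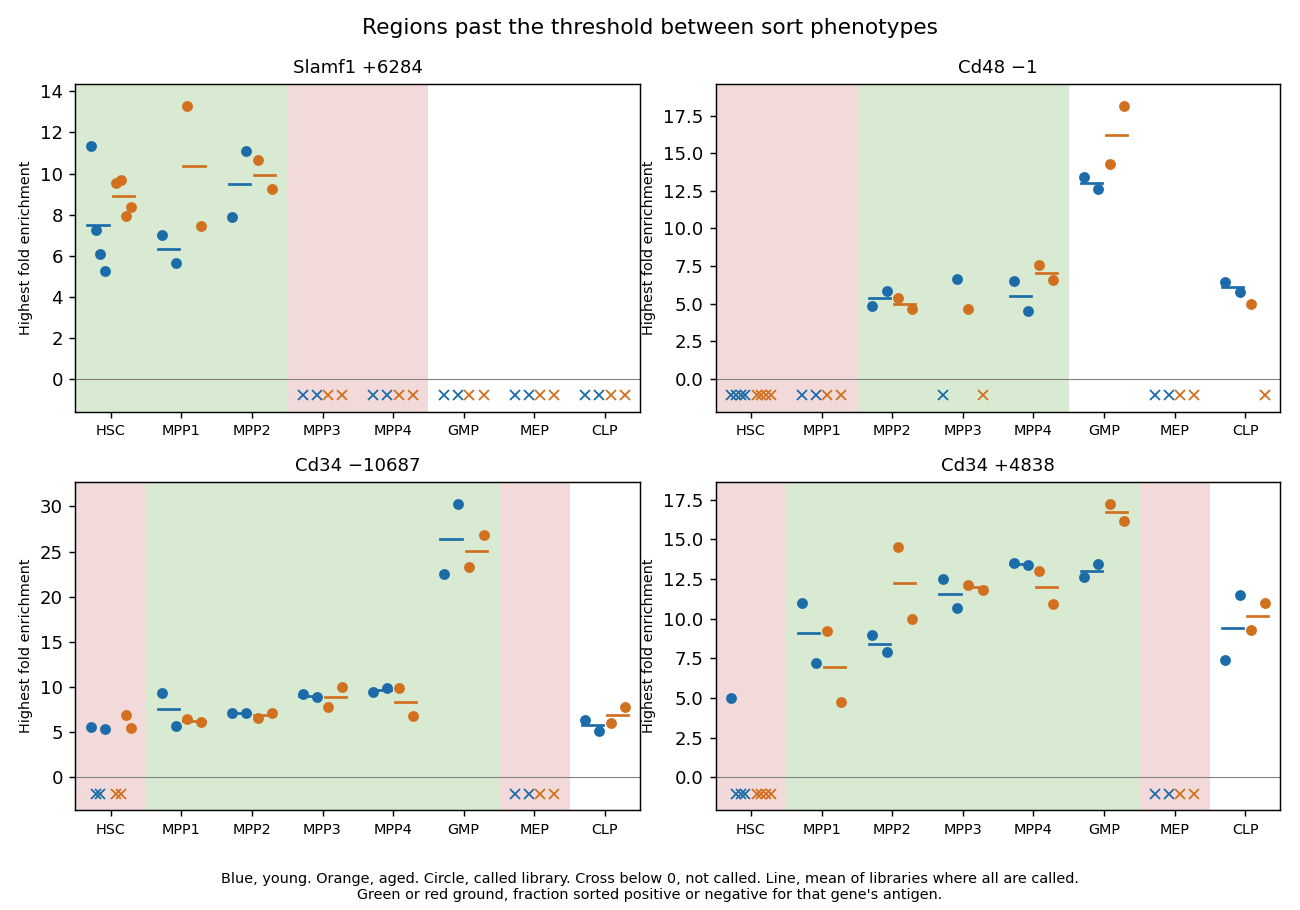
Fold enrichment per library (vertical, 1 point per library) by fraction and age (horizontal) at the regions past the threshold for their own gene's antigen, with fractions sorted as positive on green and as negative on red ground. Circles are called libraries, crosses uncalled ones and lines the mean where all libraries of a group were called. Slamf1 +6284 has circles on green ground alone, and Cd34 +4838 has 1 HSC circle, at 4.99.

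Flt3 was accessible in fractions sorted as Flt3- and Flt3+ alike. None of the 5 Flt3 regions tested passed the threshold between MPP4s and the Flt3- fractions (HSC, MPP1, MPP2 and MPP3), and none had an unadjusted p below 0.05 by Fisher's exact test, while 0.319% of all regions were called more often in MPP4s and 0.126% less often. Flt3 +130, at chr5:147400014-147400703 in the first exon, was called in every library except the 4 of MEPs. It stood at 15.01, 17.72, 12.48 and 11.33 in young HSCs and at 15.30, 13.37, 14.44 and 11.26 in aged HSCs. MPP4s had 16.20, 17.28, 16.56 and 13.12, which overlapped those of the MPP1s (14.45 to 18.13), and GMPs had 17.29 to 20.45. Centred, the values of GMPs (-0.14 to 0.15, log2) overlapped those of MPP4s (0.01 to 0.39). MPP4s and MPP3s, which the labels part by Flt3, differed there by 0.05 on the log2 scale (SE 0.12, adjusted p = 0.891, limma).

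Within the introns of Flt3 the values were higher in MPP4s than in MPP3s in part of the regions, but no difference passed. Flt3 +7547, at chr5:147392661-147393223, stood at 10.57, 11.08, 10.71 and 10.08 in MPP4s and at 7.30, 7.88, 8.23 and 9.68 in MPP3s, so that the libraries did not overlap (difference 0.39, SE 0.16, adjusted p = 0.224, limma). GMPs had 14.65 to 15.65 and CLPs 10.20 to 12.00 there, and 7 of 8 HSC libraries had 6.18 to 8.77. When centred, GMPs (-0.40 to -0.25, log2) overlapped MPP4s (-0.46 to -0.24) at this region. Flt3 +33991, at chr5:147366211-147366785, stood at 17.56, 17.74, 14.61 and 15.07 in MPP4s, with a difference of 0.23 from MPP3s (adjusted p = 0.371, limma). Flt3 +37297 was highest in GMPs (10.96 to 15.03) and CLPs (7.96 to 11.71) as deposited, and after centring the lowest GMP value (-0.79, log2) lay within the range of MPP2s (-1.09 to -0.77). Flt3 +11313 was called in all 4 GMP libraries (14.91 to 17.50), in 3 of 4 libraries each of MPP3s and MPP4s (5.39 to 7.77) and in 1 aged HSC library (6.64). No Flt3 region was called in MEPs. Of 17 member regions that could be compared in level between MPP4s and MPP3s, 0 passed (3 had an unadjusted p below 0.05, limma), against 2.2% of all regions higher and 0.569% lower in MPP4s.

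Kit, with 29 regions, is displayed by every fraction here except at a low level by CLPs, so that its comparison set 32 libraries against 4. None of the 29 regions passed in either direction (3 had an unadjusted p below 0.05 by Fisher's exact test), and 0.0838% of all regions were called more often in the c-Kit+ fractions and 1.4% more often in CLPs. The promoter region Kit +31, at chr5:75574677-75575295, was called in 35 of 36 libraries. It stood at 5.52 to 8.70 in HSCs, 5.15 to 8.19 in MPP1s, 6.97 to 8.58 in MPP2s, 7.09 to 7.80 in MPP3s, 7.41 to 7.73 in MPP4s and 6.76 to 8.07 in GMPs. CLPs, at 7.67, 4.91, 6.08 and 6.78, overlapped the c-Kit+ fractions, and MEPs had no call in 1 library and 5.34, 5.20 and 4.98 in the others. Centring changed this order. The called MEP libraries (-0.64 to -0.49, log2) then overlapped the top of HSCs (-1.20 to -0.52), and GMPs (-1.49 to -1.29) lay below all HSCs.

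Distal Kit regions divided the fractions in other ways than the c-Kit gate. Kit +169841, at chr5:75744507-75745084, was called in all libraries of HSCs (7.22 to 14.68), MPP1s (10.62 to 17.19), MPP2s (9.6 to 12.66) and MPP3s (5.35 to 10.94) and in none of MPP4s and CLPs. It was called in 1 library per age in GMPs (4.84 and 7.81) and in 1 aged MEP library (5.16). Between MPP4s and MPP3s it was called in none and all, as were 0.438% of regions and 1 of 45 members. Kit +65903, at chr5:75640689-75641027, ran the other way. It was called in all libraries of MPP4s (13.10, 11.47, 13.51 and 8.58), GMPs (10.10 to 12.17) and CLPs (6.90 to 15.73) and in 1 MPP3 library per age (5.84 and 5.88), and in none of HSCs, MPP1s, MPP2s and MEPs.

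Other Kit regions belonged to 1 or a few fractions. Kit -114263, with its GATA matches, was called in all 4 MPP2 libraries (6.99, 6.40, 12.43 and 9.41), in 3 MPP3 libraries (7.39 to 10.56), in 3 MEP libraries (4.44 to 8.55) and in both aged GMP libraries (4.89 and 6.01). Kit -192558 was called in the 4 GMP libraries alone, at 28.19, 25.36, 28.27 and 27.08. Kit +155909 was called everywhere except in MEPs, at 12.39 to 18.05 in HSCs and 18.63 to 19.78 in GMPs as deposited. Its centred values overlapped in HSCs (-0.02 to 0.43, log2) and GMPs (-0.05 to 0.07). At Kit +120478, 15 young and 11 aged libraries had a call, and among HSCs 3 of 4 young libraries had one (8.91, 12.73 and 6.95) and no aged library.

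Ly6a had few regions, and its promoter was nearly uncalled in the fractions that were sorted for Sca-1. Ly6a -6, at chr15:74997750-74998076, was called in 1 young HSC library (4.84) and 1 young MPP3 library (5.28) of the 24 libraries sorted as Sca-1+. The region with the most calls, Ly6a -23512 at chr15:75021287-75021798 between genes, was called in the 4 GMP libraries at 22.47, 24.88, 20.35 and 22.95, although GMPs were sorted as Sca-1-. It was called in 1 MPP3 library per age (9.67 and 8.40) and 1 CLP library per age (7.01 and 4.82), and in none of HSCs, MPP1s, MPP2s, MPP4s and MEPs. None of the 3 Ly6a regions passed between the Sca-1+ and Sca-1- fractions (adjusted p = 0.0705 for Ly6a -23512, Fisher's exact test, with an unadjusted p of 0.0228 in 1 region). Leaving out either MPP3 library with a call, or any 1 MEP library, took Ly6a -23512 past the threshold, at adjusted p from 0.0402 to 0.0487, more often called in the Sca-1- fractions.

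The Sca-1 contrast called 11.8% of all regions more often in the positive and 18.1% more often in the negative fractions. The negative group joined GMPs, with the most peaks, to MEPs, with the fewest. Ly6a belongs to a family of near-identical genes, and reads shared among copies cannot be placed with certainty. Bowtie2 was run at its default setting, which reports 1 place per read, chosen at random among equal matches.

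Fcgr3 was compared between GMPs, sorted as positive for FcγR, and MEPs, sorted as negative. With 4 against 4 libraries the smallest p of Fisher's exact test is 0.0286, whose adjusted value is 0.0638, so that no region could pass. Of 14 Fcgr3 regions tested, 4 were called in every GMP and no MEP library and none the other way, while 44.1% of all regions were called in every GMP and no MEP library and 0.68% the other way. The share of members, 4 of 14, was thus not above the share of all regions. The antibody binds FcγRII and FcγRIII, the products of Fcgr2b and Fcgr3, so that the gate does not isolate Fcgr3.

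The promoter region Fcgr3 -51, at chr1:171059281-171059626, was called in all 4 GMP libraries (12.66, 13.18, 11.44 and 12.29). Centred on the shared regions, the GMP values of -0.82 to -0.53 (log2) overlapped those of MPP4s (-1.08 to -0.38) and MPP2s (-1.09 to -0.61). It was also called in all libraries of MPP2s (7.14, 8.40, 8.30 and 5.83), MPP3s (4.86 to 7.36) and MPP4s (7.21 to 10.03) and in 3 of 4 CLP libraries (5.81 to 6.09), and in none of HSCs, MPP1s and MEPs. Fcgr3 +5839 was called in the 4 GMP libraries alone, at 8.21, 8.92, 10.65 and 9.28. Fcgr3 +8478, at chr1:171050738-171051111 just past the 3′ end of the gene, had its highest values in MPP4s (14.93, 15.74, 13.23 and 14.68). As deposited, these lay above GMPs (7.10 to 11.26) but overlapped MPP3s (7.92 to 13.35). After centring, MPP4s (0.05 to 0.17, log2) lay above both MPP3s (-0.63 to -0.22) and GMPs (-1.51 to -0.71). MPP4s and MPP3s differed there by 0.51 on the log2 scale (SE 0.14, adjusted p = 0.0567, limma). With replicate numbers as a block the difference passed (SE 0.13, adjusted p = 0.0324), as it did with uncalled libraries at the lowest value (adjusted p = 0.0491).

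Many Fcgr3 regions lay by a cluster of tRNA genes, which are transcribed by a polymerase of their own and are open in many cell types. Of the 18 regions, 8 overlapped a tRNA gene and 12 lay within 2000 bp of one, and no region of the other 7 genes overlapped one. Fcgr3 +14690, at chr1:171044320-171045106, overlaps a tRNA gene and was called in all 36 libraries, at 6.89 to 14.21 in HSCs, 8.77 to 11.99 in GMPs and 5.93 to 9.70 in MEPs. After centring on the regions called in all 36 libraries, it was lower in GMPs than in MEPs by a log2 difference of -0.87 (SE 0.16, adjusted p = 0.00027, limma). Without centring, which moves the median of all regions from -0.07 to 1.26, it was higher by 0.45 (adjusted p = 0.012, limma). All 5 members called in every library of both fractions had a lower centred value in GMPs, and 4 passed, against 20.3% of all regions higher and 29.7% lower. Members uncalled in any library of MEPs, the fraction with the fewest peaks, were left out by this filter. Among those kept, Fcgr3 +14690, Fcgr3 -5163 and Fcgr3 -20710 overlap tRNA genes. Leaving out the regions within 2000 bp of a tRNA gene, an alternative chosen after seeing the data, left 6 Fcgr3 regions. Of these, 5 could be tested between GMPs and MEPs, and 3 were called in all GMP and no MEP libraries, beside 44.1% of all regions.

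Procr was the only gene with a region called in every young HSC library and in no aged HSC library. Procr +232, at chr2:155751115-155751582 in the first exon, stood at 6.85, 7.5, 6.78 and 8.34 in the 4 young HSC libraries and was uncalled in the 4 aged (p = 0.0286, adjusted p = 1, Fisher's exact test). This is the smallest p of 4 against 4 libraries, so that no region could pass. Such a division held for 1 of 41 members, against 0.277% of all regions. Procr +232 was also called in 1 MPP3 library per age (5.70 and 7.49), in both young GMP libraries (6.22 and 9.12) and in 1 aged GMP library (4.94), and in none of MPP1s, MPP2s, MPP4s, MEPs and CLPs. Procr +4781 was called in 3 HSC libraries, 1 young (5.43) and 2 aged (6.95 and 10.23), so that this second Procr region did not share the difference, and in the 4 GMP libraries (7.77, 14.67, 12.37 and 13.88). Procr +5946 was called in 3 GMP libraries, at 6.17, 5.60 and 9.12.

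**Figure D4:**
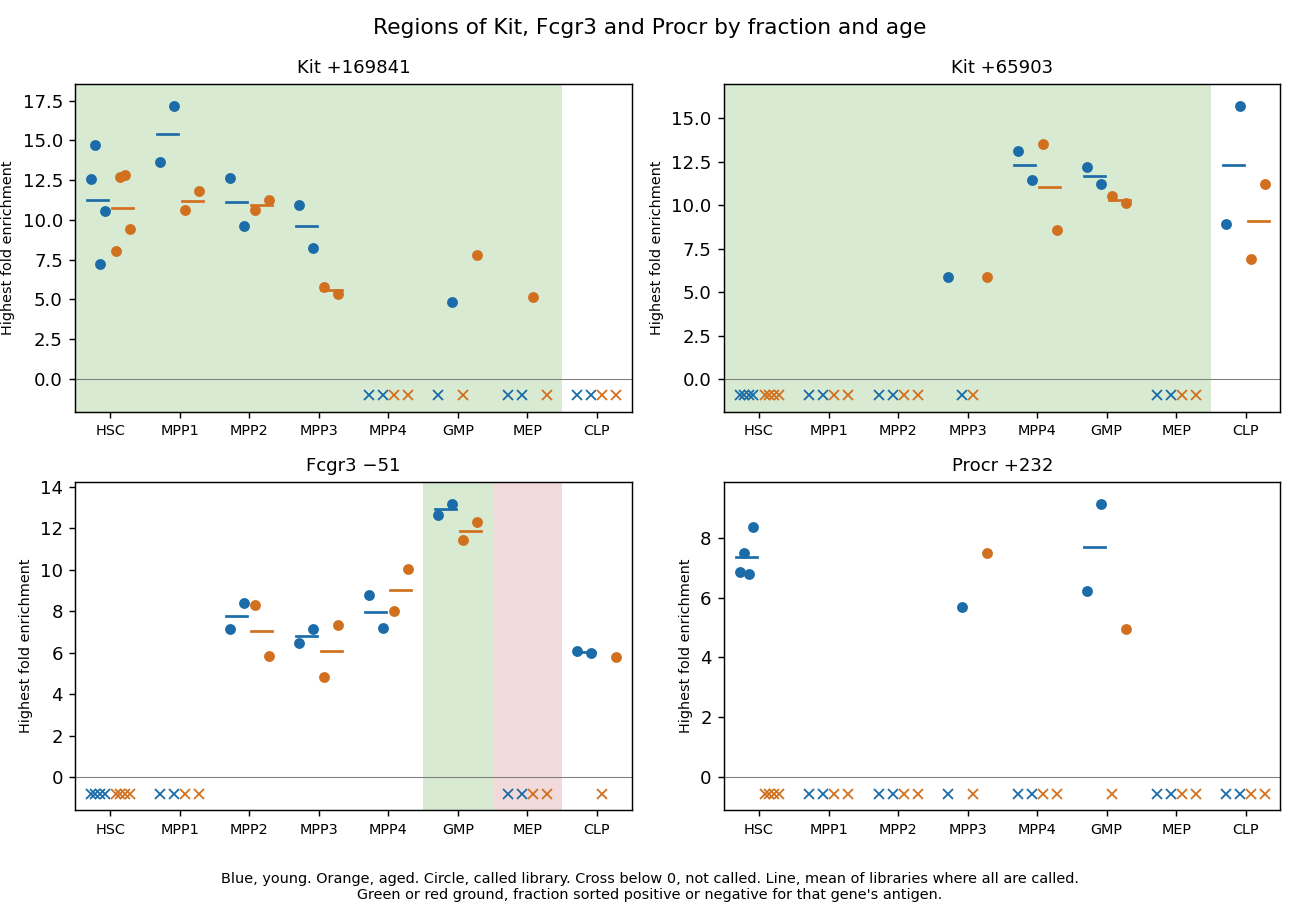
Fold enrichment per library (vertical, 1 point per library) by fraction and age (horizontal) at Kit +169841, Kit +65903, Fcgr3 -51 and Procr +232, with circles for called libraries, crosses for uncalled ones, lines for means and green or red ground for fractions sorted as positive or negative. Kit +169841 has no circle in MPP4s and CLPs, where Kit +65903 has 4 each, and Procr +232 has 4 young and 0 aged HSC circles.

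Regions of one gene were then read against the antigens of the others, a reading made after the values were seen. Fcgr3 -51 was called in 12 of 12 libraries of the CD48+ and 0 of 12 of the CD48- fractions (adjusted p = 0.000713, Fisher's exact test), 1 of 38 regions of 71377 (0.0532%) to be called in every positive and no negative library. Fcgr3 +8478 had 11 of 12 against 0 of 12 (adjusted p = 0.00248). The latter lost its call with the same number of peaks in every library (adjusted p = 0.803), while the former was then called in none of these libraries and passed in the 27 alternatives that gave a value (adjusted p up to 0.0216). No Cd48 region divided these fractions completely. Fcgr3 -51 was also called in 16 of 20 CD34+ against 0 of 12 CD34- libraries (adjusted p = 0.00193).

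In the CD34 contrast Kit +120478 had 20 of 20 against 3 of 12 (adjusted p = 0.00128) and Cd48 -1 14 of 20 against 0 of 12 (adjusted p = 0.00673, Fisher's exact test). Without GMPs and MEPs neither passed (0.0653 and 0.152), nor did Fcgr3 -51 (0.0653), whereas Cd34 +4838 did. Among the other ways of calling peaks, Fcgr3 -51 also lost its call with equal peaks (0.655), Kit +120478 under 50% cover (0.154), and Cd48 -1 under the q limit (0.448) and under 50% cover (0.541). Kit +169841 was called in 0 of 4 MPP4 libraries against 20 of 20 of the Flt3- fractions (adjusted p = 0.0211, Fisher's exact test). Without any 1 of the MPP4 libraries its calls still divided completely (adjusted p = 0.0832 to 0.1, Fisher's exact test). No region could pass there, since no division is sharper. Under each of the 3 other ways of calling peaks the call at Kit +169841 was lost (0.121 to 1). Kit +65903 was called in 0 of 16 CD150+ against 6 of 8 CD150- libraries (adjusted p = 0.0157, Fisher's exact test), a call lost under the stricter q limit (0.11) and with equal peaks (0.843). The fractions serve in several of these contrasts at once, so that they are not independent of one another. Of regions of the other genes, 0 of 57 were called more often in c-Kit+ fractions and 1 in CLPs (0.0838% and 1.4% of all regions), 0 and 1 of 51 in the Flt3 contrast (0.319% and 0.126%), 0 and 4 of 53 in the CD150 contrast (1.34% and 1.65%), 2 and 1 of 53 in the CD48 contrast (1.41% and 1.44%), 8 and 16 of 81 in the Sca-1 contrast (11.8% and 18.1% of all regions) and 4 and 0 of 71 in the CD34 contrast (4.51% and 0.132% of all regions). Of the 4 in the CD150 contrast, Fcgr3 -51 and Flt3 +11313 (adjusted p = 0.0451 each, Fisher's exact test) each lost the call in 19 of the 24 fits that left out 1 library, among them each without 1 young HSC or 1 MPP1 library (adjusted p up to 0.0694 and 0.12). The 1 region called more often in the CD48- fractions was Slamf1 +6284 (adjusted p = 0.0471), and it did not pass under the stricter q limit (0.848) or under 50% cover (0.113).

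Where a region was called in all libraries compared, its level could be tested between neighbouring fractions. Between MPP1s and HSCs 0 of 11 members passed (0 at an unadjusted p below 0.05), with differences of -0.12 to 0.33 on the log2 scale, against 0.00598% of all regions higher and 0% lower. Between MPP2s and MPP1s 0 of 15 passed (2 unadjusted), against 0.0857% and 0.111%, and between MPP2s and MPP3s 0 of 15 (1 unadjusted), against 0.86% and 0.0695% (limma). The unadjusted member in the last was Kit +169841, higher in MPP2s by 0.70 (SE 0.20, adjusted p = 0.0952), and without young MPP3 replicate 1 it passed (0.88, adjusted p = 0.0249, limma).

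No member region passed a test of age. The names of the peaks hold the word new in 9 aged and 2 young libraries, among them all 4 aged libraries of MPP3s and MPP4s and no young library of these fractions, and the labels do not say what it marks. Age and this mark cannot be told apart in MPP3s and MPP4s. Without the libraries that carry it, which leaves no aged MPP3 or MPP4 library, 0 members passed as well. Over all fractions 0 of the 86 regions passed by an exact conditional test of calls with the fraction as stratum (0 at an unadjusted p below 0.05). Over all regions 0% passed after adjustment, and 0.582% more often called in aged and 0.531% more often called in young libraries had an unadjusted p below 0.05. The smallest p belonged to Procr +232, with 7 young against 2 aged libraries (exact p = 0.0524, adjusted p = 1), followed by Kit +120478 with 15 against 11 (exact p = 0.0714, adjusted p = 1). In level, 0 of 12 members passed between aged and young HSCs (1 at an unadjusted p below 0.05, limma), against 0.0231% of all regions higher and 0% lower. It was Flt3 +33991, which stood at 12.97, 13.92, 10.38 and 10.01 in young and 10.30, 7.67, 6.56 and 8.84 in aged HSCs, a difference of -0.51 (SE 0.18, adjusted p = 0.399, limma).

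Relatives and partners of the 8 genes were read from lists, with the share of all regions called in the same direction beside each count. The other ways of calling peaks and the leaving out of libraries were not tried on the regions of these lists. Of 27 regions of the SLAM family tested against CD150, 0 were more often called in positive fractions (1.34% of all regions) and 1 in negative (1.65%), Ly9 -11820 with 0 of 16 against 6 of 8 (adjusted p = 0.0157, Fisher's exact test), and the median difference was -12.5 percentage points against 0 over all regions. Against CD48 the same family had 1 each way (1.41% and 1.44% of all regions): Cd244a -112, at the gene of a receptor for CD48, was called in 12 of 12 positive against 2 of 12 negative libraries (adjusted p = 0.00802), and Cd84 +30 in 1 of 12 against 10 of 12 (adjusted p = 0.0319). Of 30 regions of the Ly6 family, 2 were more often called in Sca-1+ and 9 in Sca-1- fractions (11.8% and 18.1% of all regions), among them the promoter of Ly6e (0 of 24 against 4 of 8, adjusted p = 0.0105). Of 35 regions of Fc receptor genes, 20 were called in all GMP and no MEP libraries (44.1% of all regions), with a median difference of 100 points against 75 over all regions.

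Among kinases and ligands, Flt3l -1141, at the gene of Flt3 ligand, was called in 30 of 32 c-Kit+ libraries and in 0 of 4 CLP libraries (adjusted p = 0.0293, Fisher's exact test), 1 of 44 regions tested (0.0838% of all regions). In the Flt3 contrast 0 of 30 of them passed (0.319% of all regions more often called in MPP4s, 0.126% less often). In the Sca-1 contrast 6 of 41 were more often called in positive and 5 in negative fractions (11.8% and 18.1% of all regions), and 5 of the 6 were regions of Kitl, which encodes stem cell factor. Of 37 regions of lineage markers and Il7r, Il7r -25 was called in 4 of 4 MPP4 libraries against 0 of 20 of the Flt3- fractions (adjusted p = 0.0211), the only 1 to pass (0.319% of all regions).

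Promoters whose values over the 36 libraries were most like those of the leading region of each gene were named by Pearson's r over 10702 promoter regions, as a description. The libraries differ in number of peaks and in the median above, and an uncalled library entered at its lowest value. Kit +31 was nearest to Gnl2 (0.91), Ice1 (0.89) and Cfl2 (0.88), Flt3 +130 to Bnc2, Dhrs9 and Ptgs2 (0.99 each), and Slamf1 -4980 to Zfp108, Met and Atp8b2 (0.95 each). Cd48 +17152 was nearest to Zmynd10 (0.85), Hlcs (0.82) and Apbb1ip (0.81), and Ly6a -23512, called mostly in GMPs, to Nlrp3 (0.99), Gas7 (0.94) and C130050O18Rik (0.94). Cd34 -58958 was nearest to Minar1 (0.84), Pkib (0.83) and Cd86 (0.82), Procr +232 to Wnk4 (0.80), Eral1 (0.73) and Copz2 (0.68), and Fcgr3 +14690 to Tmem135 (0.73), Zfp873 (0.72) and Wdr60 (0.72).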

How the data were processed

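The 86 regions and the gene lists were chosen with earlier results of these data known. ATAC-seq libraries of 20000 sorted cells were read as single 60 bp reads after selection of 240 to 360 bp fragments, aligned with Bowtie2 to mm10 and subsampled with SAMtools to equal reads by the authors. Read counts were not used here, the number of peaks still ran from 9581 to 63288 per library, and no counting interval was given. The authors called peaks in each library with MACS2 2.2.6 (q = 0.001). The deposited peak lists give a display score, the fold enrichment (a ratio to local background), and the p-value and q-value as −log10. The fold enrichment and −log10 q were used here, and 0 per-sample columns were left unmapped.

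Peaks were merged (overlap of at least 1 bp) and given to the nearest protein-coding start site. Calls were compared by Fisher's exact test, 2-sided, adjusted after Benjamini and Hochberg over all regions of a contrast that were called in at least 1 of its libraries (threshold 0.05). Levels, as log2 fold enrichment centred per library on regions called in all 36, were compared with limma 3.58.1 in R 4.3.3, with age as a covariate between fractions, over regions called in all libraries compared. Ages were compared over fractions by an exact conditional test of calls with fraction as stratum. Other steps used Python 3.11.15, numpy 2.4.6, pandas 2.3.3 and scipy 1.17.1. The tests were checked on simulated data. The regions described were, per gene, the one called in most libraries (ties by mean fold enrichment), the one at or nearest to the start site, and up to 2 with the largest difference in calls between the antigen's fractions (for Procr, the 2 next by calls). Further regions were named after their values were seen. Like patterns were sought among promoters called in at least 4 libraries. The alternatives were a −log10 q of at least 10, calls covering at least 50% of a region, the strongest 9581 peaks per library, a replicate block, no centring, the median over summits, a floor for uncalled libraries, start sites of all transcript types, and each library left out. Groups came from the labels.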

Additional observations from a re-analysis of the deposited data

Results flagged for a closer look

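At the promoter of Cd34, young HSC replicate 1 had a fold enrichment of 6.10 at Cd34 +9, far below the other young HSC libraries (8.99, 9.0 and 8.94). Of 18 groups of 4 libraries examined this was the only one with a sample so far from the rest, and chance marks about 1 in 20.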

How the results depend on the processing

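Under a −log10 q of at least 10, calls covering at least 50% of a region, or the strongest 9581 peaks per library, the numbers of regions past the threshold for their own antigen changed. For Kit, 1 region passed under 50% cover against 0. For Slamf1, 0 passed under 50% cover and 0 with equal peaks against 1. For Cd48, 0 passed under each of the 3 against 1. For Ly6a, 1 passed under 50% cover and 1 with equal peaks against 0. For Cd34, 4 passed under the q limit, 1 with equal peaks and 1 without GMPs and MEPs against 2. The cause was not tested. Leaving out 1 library at a time gave 0 to 1 regions for Ly6a, 2 to 4 for Cd34 (4 without aged HSC replicate 1), 1 throughout for Slamf1 and Cd48, and 0 throughout for Kit, Flt3 and Fcgr3.

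The log2 difference at Flt3 +130 between MPP4s and MPP3s ran from -0.02 to 0.13 over libraries left out, with -0.02 without aged MPP4 replicate 1. At Fcgr3 +14690 the difference between GMPs and MEPs ran from -1.01 to -0.74 over libraries left out, and it was 0.45 without centring. In that contrast Cd34 -58958 did not pass with the median over summits (adjusted p = 0.0704 against 0.00782), and Cd34 +37747 passed without centring (3.62e-07 against 0.152, limma). Between MPP1s and HSCs, Cd34 -58958 ran from 0.02 to 0.23, and between MPP2s and MPP3s Slamf1 -4980 ran from 0.24 to 0.56. The share of libraries with a call at Kit +31 was 21.9 points higher in the c-Kit+ fractions under the q limit and 9.38 higher with equal peaks, the reverse of the sign with all peaks. Cd34 +9 between MPP1s and HSCs became 0.03 with a replicate block and 0.03 with HSC replicates 1 and 2 alone. Replicate numbers did not pair most libraries, since 3 of 56 correlations of same-numbered libraries exceeded 0.1. Among these were young MPP3s with MPP4s (0.33, the highest) and aged MPP1s with MPP2s (0.18). Levels of both pairs of fractions were compared without a block in the main fits. With the block, Fcgr3 +8478 passed between MPP4s and MPP3s (adjusted p = 0.0324 against 0.0567, limma), Cd34 -58958 was 0.02, Slamf1 -4980 0.39, Flt3 +130 0.05 and Fcgr3 +14690 -0.87. The counts over all regions rose from 161 and 13 to 287 and 21 between MPP2s and MPP3s. They rose from 414 and 107 to 740 and 213 between MPP4s and MPP3s, and from 17 and 22 to 52 and 75 between MPP2s and MPP1s. The number of peaks, which differed between MEPs and GMPs in particular, limits what a missing call says.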
